A study of Mus musculus with 8 samples.

Results

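Interferon-stimulated genes and genes of antigen presentation were followed in NIH3T3 cells with and without the Hedgehog ligand and the Esrrb expression vector. The set was a list of 36 mouse gene symbols, chosen by name with earlier results of these data known, and no measured value entered the rule. Of the 36, 29 had a matched locus in all 8 samples, out of 20195 such genes in the series. Of these, 20 reached 1 FPKM in at least 2 samples and were tested among 10283 genes, and the other 9 stayed below that limit. The last 7 members shared an assembled locus with a neighbour in at least 1 sample and are described apart.

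Interferons are secreted when a cell detects viral nucleic acid, and they act through cell surface receptors and Janus kinases on transcription factors that include STAT2 and IRF9. Type I interferon signals mainly through the interferon-stimulated response element (ISRE), and interferon-gamma through the gamma-activated site (GAS). Their targets include antiviral effectors, GTPases and the machinery that cuts peptides and loads them on MHC class I molecules. Fibroblasts use this pathway and keep some of its genes on at a basal level without infection.

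The cells of all 8 samples were NIH3T3, mouse embryonic fibroblasts able to answer Hedgehog ligand, stably transfected with the vector pcDNA3.1 (Zeo+) and selected with Zeocin. The empty vector was carried by NIH3T3-pc3.1 cells, used for the Control and Hh-CM conditions. For Esrrb and Esrrb+Hh-CM, NIH3T3-Esrrb cells with an expression vector for the nuclear receptor estrogen related receptor beta (Esrrb) were used. Hh-CM and Esrrb+Hh-CM cells received 1% of medium conditioned by HEK293 cells with a Sonic Hedgehog N-terminus transgene. Control and Esrrb cells received the vehicle, which was equally diluted medium from HEK293 cells without the transgene, and both treatments lasted 48 h at confluence in phenol-red free medium with 5% newborn calf serum. Each condition had 2 samples. By the study's methods, 2 independent transfections were made and the selected cells of each were pooled. Whether that gave 1 pool per vector or 1 per transfection is not clear from this wording. The methods call the 2 samples of a condition biological replicates. No source used here says whether they were separate cultures of 1 pool or came from separate transfections, so p-values measure only the spread between them. A difference between vectors cannot be told apart from a difference between the separately selected cells that carry them.

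Gli1, a target of the Hedgehog pathway, was at 0.0217 to 0.106 FPKM in the 4 vehicle samples and at 26.8 to 34.8 FPKM in the 4 Hh-CM-treated samples. Esrrb mRNA was listed at 0 in all 4 samples labelled Esrrb or Esrrb+Hh-CM, and at 0.0281 and 0.0203 FPKM in the Hh-CM samples. The transcript of the Esrrb vector was therefore not seen in these values, and every difference between vectors rests on the labels. Esrrb protein, which the study measured by Western blot in the transfected cells, was not analysed here. The fibroblast markers Col1a2 and Vim were at 1137 to 1818 FPKM. Epithelial markers stayed at or below 0.0916 FPKM, and Ptprc, which marks all leukocytes, at or below 0.265 FPKM. The summed FPKM of 9 leukocyte markers was 4.39 to 6.02 in Control samples and 6.52 to 8.82 in the other samples, mostly from Cd14 and Cd68, and its part in the results was not tested. Cd3e was at 0 in every sample. No read counts were given, and depth relative to Control replicate 1 ran from 0.743 to 1.54. Esrrb replicate 1 stood apart in its assembly, with 4339 repeated identifiers against 136 to 147 in the others.

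Promoter sequences from RefSeq (GRCm38.p6, 250 bases before to 50 after each start) were found for 29 of the 36 members. The core of the ISRE, searched on both strands as GAAANNGAAA, was present in 14 of these 29 (48.3%), against 3.99% of 27025 genes with a promoter in the table. The GAS motif TTCNNNGAA, which reads the same on both strands, was present in 7 (24.1%), against 9.55% of all genes. The estrogen related receptor element TCAAGGTCA and the Gli site GACCACCCA, both searched on both strands, were in none of the 29, and in 0.466% and 0.289% of all genes. The windows below are shown because Isg15, Stat2 and Ifit1 were higher in all Esrrb-vector samples, Bst2 was among the members that fell, and Irf1 had only a GAS match. Capitals mark the matched letters, and each window reads 5′ to 3′ along the gene.
Isg15, chr4:156200855-156200916, minus strand, 3 overlapping ISRE matches: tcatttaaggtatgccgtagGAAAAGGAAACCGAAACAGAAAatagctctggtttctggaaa
Stat2, chr10:128270256-128270305, plus strand, 1 ISRE match on the other strand: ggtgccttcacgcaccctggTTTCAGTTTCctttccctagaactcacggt
Ifit1, chr19:34640765-34640833, plus strand, 2 ISRE matches on the other strand: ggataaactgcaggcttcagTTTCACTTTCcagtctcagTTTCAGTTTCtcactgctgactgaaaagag
Bst2, chr8:71537567-71537622, minus strand, 2 overlapping ISRE matches: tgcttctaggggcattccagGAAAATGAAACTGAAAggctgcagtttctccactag
Irf1, chr11:53769904-53769952, plus strand, 1 GAS match: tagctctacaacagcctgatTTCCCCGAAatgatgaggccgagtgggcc
A match is a description of letters, and binding was not measured. Bst2 also had a GAS match that overlapped its ISRE matches. Irf7, Ifi44, Trim25, Xaf1 and Tap1, which are described below, had no match to either element in these windows. The promoters of Mx1, Mx2, Usp18, Dhx58, Parp14, Iigp1 and Oas2 were not in the table.

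The 20 tested members ranged in mean over the 8 samples from 1.09 FPKM for Irf7 to 93.5 FPKM for Tapbp. FPKM scales fragments to transcript length and to the mapped fragments of the sample, so levels of different genes can be set side by side. Differences were tested with limma on log2(FPKM + 0.1), and "changed" means a limma adjusted p below 0.05 over all 10283 genes. On this scale the change of a gene with low FPKM is understated. Comparisons with Control share the same 2 Control samples. The plot of FPKM by role gives every sample of the tested members.

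**Figure D1:**
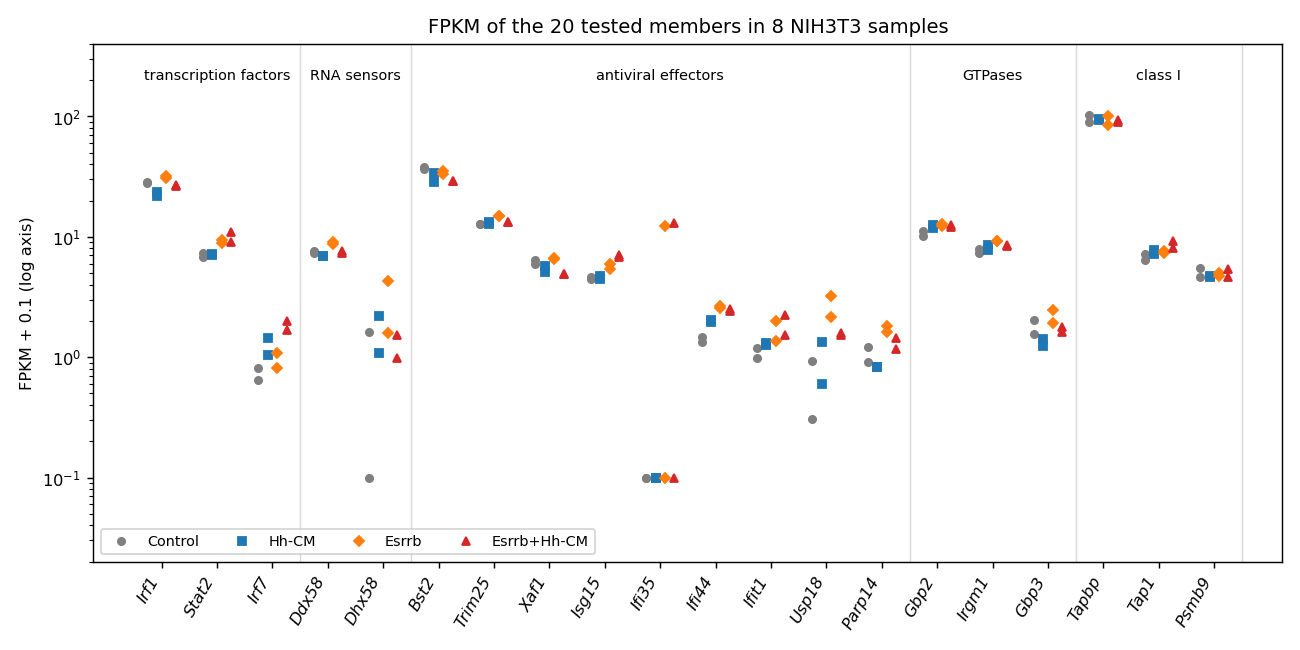
FPKM + 0.1 (log axis) of the 20 tested members, grouped by role, in the 2 samples of each of 4 conditions (grey circles Control, blue squares Hh-CM, orange diamonds Esrrb, red triangles Esrrb+Hh-CM). Most members kept within a narrow range, from 84.2 to 101.8 FPKM for Tapbp, while the 2 samples of a condition lay far apart for Ifi35 and Dhx58.

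The factors that carry the interferon signal to promoters were expressed at basal levels in Control cells and moved in different directions. Stat2, a subunit of the factor that type I interferon activates (chromosome 10 of mm9 from 127707629 to 127729905), was at 6.66 and 7.30 FPKM in Control and 6.94 and 7.15 in Hh-CM samples. It was at 8.82 and 9.32 FPKM in Esrrb and 8.95 and 10.9 in Esrrb+Hh-CM samples. All 4 Esrrb-vector samples lay above all 4 empty-vector samples. The log2 fold change was 0.50 ± 0.11 (SE) for Esrrb+Hh-CM against Control (limma adjusted p = 0.0160) and 0.48 ± 0.11 against Hh-CM (limma adjusted p = 0.0301). For Esrrb against Control it was 0.37 ± 0.11 and did not pass (limma adjusted p = 0.0677). The change from Control lost its call without Control replicate 1. That from Hh-CM lost its call without either Esrrb sample, either Hh-CM sample or Esrrb+Hh-CM replicate 2. Both calls were also lost with no FPKM limit.

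Irf1, an activator of class I genes that is itself a target of interferon-gamma, was at 28.0 and 28.5 FPKM in Control and 23.6 and 21.6 in Hh-CM samples. It was at 32.0 and 30.6 FPKM in Esrrb and 26.4 and 26.7 in Esrrb+Hh-CM samples. The vehicle samples were all higher than the Hh-CM-treated ones. With Hh-CM, Irf1 fell by 0.32 on the log2 scale in empty-vector cells (SE 0.0542, limma adjusted p = 0.0128) and by 0.24 in Esrrb-vector cells (SE 0.0542, limma adjusted p = 0.0276). It was higher by 0.23 in Esrrb+Hh-CM than in Hh-CM cells (SE 0.0542, limma adjusted p = 0.0350). Irf1 lies on chromosome 11 from 53583516 to 53591876. The first call was lost without either Control sample or Hh-CM replicate 2 (adjusted p up to 0.0691). The second was lost without any 1 Control, Esrrb or Esrrb+Hh-CM sample and with no FPKM limit. The third was lost without any 1 sample other than Hh-CM replicate 1. It was also lost with no FPKM limit, the replicate block, rescaled FPKM or no variance trend.

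Irf7, which amplifies type I interferon production, was in this limma fit the only tested member to pass both thresholds used by the study, which are an adjusted p below 0.05 and a log2 difference of 1 or more in size, in any of the 5 comparisons. It lies on chromosome 7 from 148448605 to 148452380. It was at 0.717 and 0.546 FPKM in Control, 1.33 and 0.936 in Hh-CM, 0.992 and 0.717 in Esrrb, and 1.59 and 1.91 in Esrrb+Hh-CM samples. The Esrrb+Hh-CM samples were the highest and the Control samples the lowest, with Control replicate 1 just below Esrrb replicate 2. The log2 fold change of Esrrb+Hh-CM against Control was 1.34 ± 0.27 (SE, limma adjusted p = 0.0126). The other comparisons of Irf7 ranged from 0.38 to 0.96 and did not pass. The call was lost without Control replicate 2 or Esrrb+Hh-CM replicate 2, with an adjusted p up to 0.0615, and with a pseudocount of 1 the log2 fold change was 0.75, below the fold threshold. Irf7 passed the FPKM limit only through 1 Hh-CM and both Esrrb+Hh-CM samples. Among all genes, 6.21% passed both thresholds between Esrrb+Hh-CM and Control.

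Of the RNA sensors that start interferon production, Ddx58, which encodes RIG-I (chromosome 4 from 40150806 to 40186861), was at 7.53 and 7.17 FPKM in Control and 6.81 and 6.89 in Hh-CM samples. It was at 8.56 and 9.001 FPKM in Esrrb and 7.55 and 7.23 in Esrrb+Hh-CM samples, so that only the Esrrb samples stood above the rest. It rose by 0.25 on the log2 scale from Control to Esrrb cells (SE 0.0601, limma adjusted p = 0.0411) and fell by 0.25 from Esrrb to Esrrb+Hh-CM cells (SE 0.0601, limma adjusted p = 0.0341). Both calls were lost when any 1 of the 8 samples was left out and with the replicate block, and the first also with rescaled FPKM. Dhx58, which encodes the third sensor of this family, was listed from 0 in Control replicate 1 to 4.17 FPKM in Esrrb replicate 2, and its log2 differences had an SE of 1.30 and no call.

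The antiviral effectors included the members with the firmest differences. Isg15 encodes a ubiquitin-like protein that is joined to other proteins in the interferon response, and lies on chromosome 4 from 155573533 to 155574927. It was at 4.51 and 4.32 FPKM in Control, 4.37 and 4.61 in Hh-CM, 5.30 and 5.80 in Esrrb, and 6.90 and 6.68 in Esrrb+Hh-CM samples. The groups formed 3 levels, with Control and Hh-CM samples overlapping at the lowest and Esrrb+Hh-CM samples at the highest. The increase of Esrrb+Hh-CM over Control was 0.61 ± 0.08 on the log2 scale (SE, limma adjusted p = 0.00220) and that over Hh-CM 0.59 ± 0.08 (limma adjusted p = 0.00646). Both kept their call under every alternative setting and with each sample left out. Isg15 also rose from Control to Esrrb by 0.32 ± 0.08 (limma adjusted p = 0.0404) and from Esrrb to Esrrb+Hh-CM by 0.29 ± 0.08 (limma adjusted p = 0.0428). These 2 calls were lost when any 1 of the 8 samples was left out. They were also lost with no FPKM limit, the replicate block or rescaled FPKM. The difference between the 2 responses to Hh-CM, the interaction, was 0.27 ± 0.11 and did not pass (limma adjusted p = 0.276).

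Ifi44, an interferon-induced gene of chromosome 3 (151393886 to 151412911), was at 1.36 and 1.24 FPKM in Control and 1.85 and 1.93 in Hh-CM samples. It was at 2.48 and 2.55 FPKM in Esrrb and 2.33 and 2.43 in Esrrb+Hh-CM samples. No 2 of the groups overlapped, with Control lowest and Esrrb highest. It rose by 0.90 ± 0.11 on the log2 scale in Esrrb cells (SE, limma adjusted p = 0.00552) and by 0.82 ± 0.11 in Esrrb+Hh-CM cells (limma adjusted p = 0.00274), both against Control. These 2 calls held under every alternative and with each sample left out. The rise with Hh-CM in empty-vector cells was 0.51 ± 0.11 (limma adjusted p = 0.0272) and lost its call without any 1 Control or Hh-CM sample and with the replicate block, with an adjusted p up to 0.118. With a pseudocount of 1 it was 0.33. In Esrrb-vector cells Hh-CM gave -0.08 ± 0.11 (limma adjusted p = 0.664).

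Trim25, a ubiquitin ligase that activates RIG-I, changed by a small amount with closely spaced replicates. It was at 12.7 and 12.6 FPKM in Control, 12.8 and 13.1 in Hh-CM, 14.8 and 14.7 in Esrrb, and 13.2 and 13.2 in Esrrb+Hh-CM samples. It rose by 0.22 on the log2 scale from Control to Esrrb cells (SE 0.0418, limma adjusted p = 0.0224) and fell by 0.16 from Esrrb to Esrrb+Hh-CM cells (SE 0.0418, limma adjusted p = 0.0405). The first call was lost without any 1 Control or Esrrb sample, and the second without any 1 of the 8 samples. The second was also lost with the replicate block and with an FPKM of 1 or more required in every sample. Trim25 lies on chromosome 11 from 88860690 to 88881607.

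Bst2 and Xaf1 went the other way. Bst2, which encodes tetherin, a membrane protein that holds budding virus on the cell (chromosome 8 from 74058163 to 74061336), was the highest tested effector. It was at 37.7 and 36.5 FPKM in Control, 33.9 and 28.5 in Hh-CM, 35.4 and 33.2 in Esrrb, and 29.0 and 28.9 in Esrrb+Hh-CM samples. Only in Control replicate 2 and Hh-CM replicate 1 did the value lie within the 95% bounds that Cufflinks gave with it. In the other samples it lay above them, as in Control replicate 1 with bounds of 25.3 to 32.9. Bst2 fell by 0.36 on the log2 scale from Control to Esrrb+Hh-CM cells (SE 0.0856, limma adjusted p = 0.0236). The call was lost without any 1 Control or Esrrb+Hh-CM sample and with no FPKM limit. Xaf1, an interferon-induced gene of cell death (chromosome 11 from 72115131 to 72127235), was at 5.85 and 6.30 FPKM in Control, 5.64 and 4.97 in Hh-CM, 6.47 and 6.57 in Esrrb, and 4.85 and 4.79 in Esrrb+Hh-CM samples. All Hh-CM-treated samples lay below all vehicle samples. Xaf1 fell by 0.33 from Control (SE 0.0827, limma adjusted p = 0.0275) and by 0.43 from Esrrb (SE 0.0827, limma adjusted p = 0.0155) to Esrrb+Hh-CM cells. The first call was lost without any 1 Control or Esrrb+Hh-CM sample, with no FPKM limit and with the replicate block. The second was lost without any 1 Esrrb or Esrrb+Hh-CM sample.

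The other tested effectors passed no test in this fit. Usp18, a protease that removes ISG15 and restrains the receptor, was at 0.836 and 0.204 FPKM in Control, 0.502 and 1.25 in Hh-CM, 3.13 and 2.07 in Esrrb, and 1.43 and 1.502 in Esrrb+Hh-CM samples. Among the empty-vector samples only Hh-CM replicate 2 reached the FPKM limit, so Usp18 was tested only because of its Esrrb-vector samples. The Esrrb-vector samples were all above the empty-vector samples, and the log2 difference of Esrrb from Control was 2.31 ± 0.63 (SE, limma adjusted p = 0.0592). It passed both thresholds without Control replicate 1, at 3.12 (limma adjusted p = 0.0434), and with a pseudocount of 1, at 1.26 (limma adjusted p = 0.0370). Ifit1, which binds viral RNA without a proper cap, was at 0.885 and 1.09 FPKM in Control, 1.15 and 1.22 in Hh-CM, 1.88 and 1.27 in Esrrb, and 2.14 and 1.42 in Esrrb+Hh-CM samples. Its Esrrb-vector samples also lay above the empty-vector samples, with log2 differences of 0.60 ± 0.27 for Esrrb and 0.77 ± 0.27 for Esrrb+Hh-CM against Control (limma adjusted p = 0.194 and 0.0785). Parp14 was at 1.12 and 0.808 FPKM in Control, 0.726 and 0.725 in Hh-CM, 1.70 and 1.52 in Esrrb, and up to 1.34 in Esrrb+Hh-CM samples, with the Esrrb samples above and the Hh-CM samples below all others. Ifi35 was listed at 0 in 6 samples and at 12.2 and 12.9 FPKM in Esrrb replicate 2 and Esrrb+Hh-CM replicate 2, so no difference between conditions can be read from it.

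Of the interferon-inducible GTPases, which act on the vacuoles of intracellular microbes, none of the 3 tested passed. Gbp2, the highest of them, was at 10.1 and 11.1 FPKM in Control, 12.4 and 11.8 in Hh-CM, 12.6 and 12.1 in Esrrb, and 12.5 and 11.9 in Esrrb+Hh-CM samples. Both Control samples lay below all the others, with log2 differences from Control of 0.19 to 0.22 (limma adjusted p from 0.0688 to 0.113). Irgm1 was at 7.29 to 9.19 FPKM and its difference of Esrrb from Control, 0.27 ± 0.07, came close to the threshold (limma adjusted p = 0.0542). Its assembled locus took 7 different extents over the 8 samples. Gbp3 was at 1.13 to 2.35 FPKM.

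The class I genes on chromosome 17 lie close together in the major histocompatibility complex. Tapbp encodes tapasin, which holds the class I molecule at the peptide transporter, and was the highest tested member. It was at 89.6 and 101.8 FPKM in Control, 93.7 and 94.8 in Hh-CM, 84.2 and 100.9 in Esrrb, and 93.4 and 89.8 in Esrrb+Hh-CM samples. These ranges overlapped, and no log2 difference was larger in size than 0.06 (SE 0.0994). Tap1, a subunit of the peptide transporter (34324498 to 34334170), was at 7.14 and 6.26 FPKM in Control, 7.65 and 7.09 in Hh-CM, 7.50 and 7.19 in Esrrb, and 9.18 and 7.96 in Esrrb+Hh-CM samples. It rose by 0.35 ± 0.10 on the log2 scale in Esrrb+Hh-CM against Control cells (SE, limma adjusted p = 0.0429). This call was lost without any 1 sample other than Esrrb+Hh-CM replicate 2, and with no FPKM limit or rescaled FPKM. The first bases of Tap1 overlap Psmb9, an inducible proteasome subunit at 4.50 to 5.42 FPKM. The study's methods name a stranded library kit but do not say whether strand was used for the FPKM. Unless it was, reads in the overlap cannot be told apart. Psmb9 passed in no comparison.

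The share of tested members that changed was set beside the share of all tested genes. With Hh-CM in empty-vector cells, 2 of 20 tested members changed (10%), Ifi44 up and Irf1 down, against 18.0% of all tested genes. From Control to Esrrb, 4 rose and none fell (20% against 16.4%), namely Ddx58, Ifi44, Isg15 and Trim25. From Control to Esrrb+Hh-CM, 5 rose and 2 fell (35.0% against 35.0%). From Hh-CM to Esrrb+Hh-CM, 3 rose and none fell (15% against 18.9%), and from Esrrb to Esrrb+Hh-CM, 1 rose and 4 fell (25% against 23.4%). Shares so near the background are no result about the members.

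In the other 4 comparisons, no tested member passed the fold threshold as well. At an unadjusted p below 0.05, 1 member did in Esrrb against Control, beside 197 of all 10283 genes. None did in the other 3, beside 335 genes in Hh-CM against Control, 257 in Esrrb+Hh-CM against Hh-CM and 524 in Esrrb+Hh-CM against Esrrb. Among all genes, the share past an adjusted p of 0.05 and the fold threshold was 2.76% in Hh-CM against Control, 1.47% in Esrrb against Control, 1.97% in Esrrb+Hh-CM against Hh-CM and 4.81% in Esrrb+Hh-CM against Esrrb. For the interaction, limma called none of the 20 members, and 1.35% of all genes were called. At an unadjusted p below 0.05 there were 3 members, beside 1849 of all 10283 genes. The median log2 difference of the tested members was 0.02 for Hh-CM, 0.28 for Esrrb and 0.25 for Esrrb+Hh-CM against Control, beside 0.04, 0.05 and 0.08 for all genes. It was 0.22 for Esrrb+Hh-CM against Hh-CM and -0.10 against Esrrb, beside 0.05 and 0.04. The plot of log2 fold changes gives the single values.

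**Figure D2:**
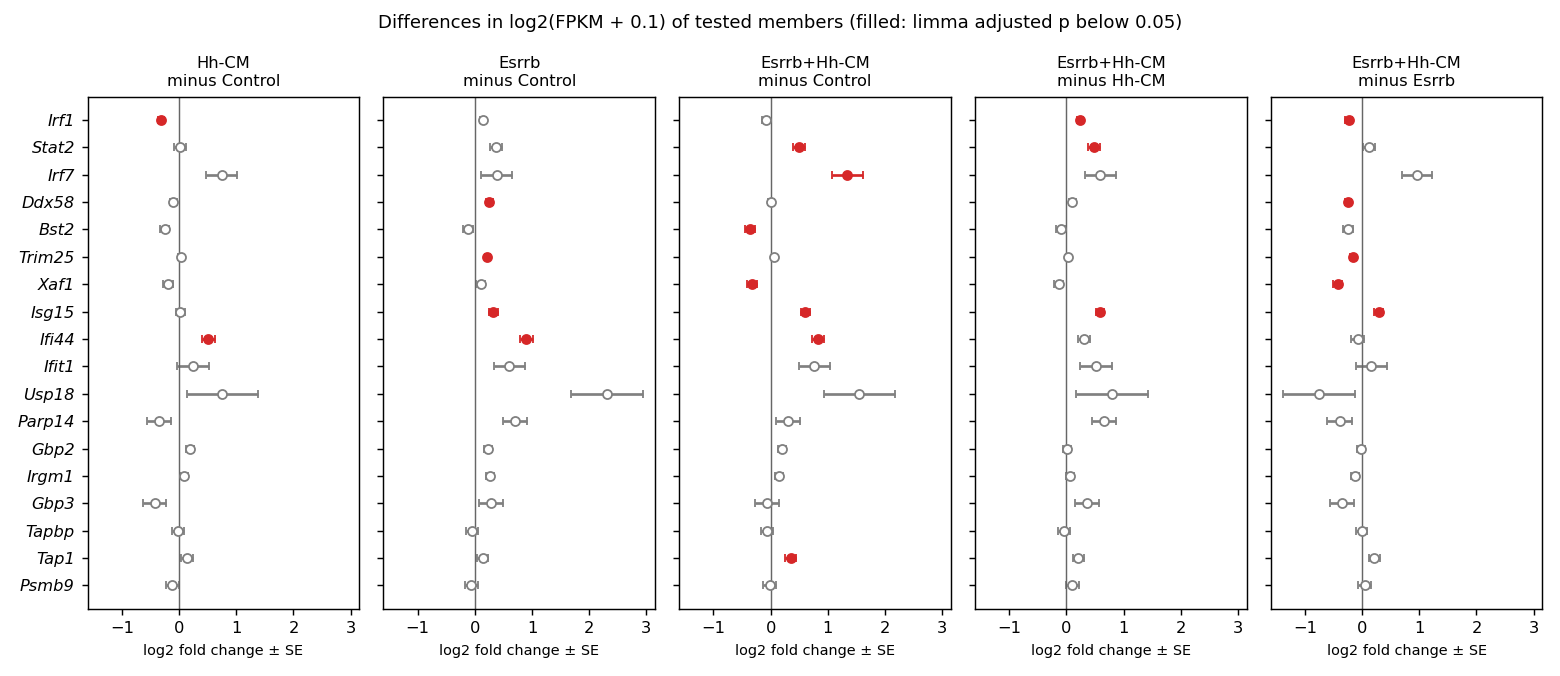
Log2 fold change (x axis, log2(FPKM + 0.1) units) with its standard error for 18 tested members in 5 comparisons of 2 samples each, filled red where the limma adjusted p was below 0.05. Ifi35 and Dhx58 are left out because their standard errors exceed 1, and most points to the right of 0 are in the 3 comparisons that add the Esrrb vector.

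A difference between the vectors was seen in how the samples were ordered. All 4 Esrrb-vector samples lay above all 4 empty-vector samples for 6 of the 20 tested members (30.0%), Stat2, Isg15, Ifit1, Ifi44, Usp18 and Trim25, against 12.6% of all tested genes. No tested member lay below in this way, against 6.37% of all genes. Usp18 needed its Esrrb-vector samples to meet the FPKM limit, so the limit favoured its place among the 6. Trim25 was among them by 13.15 FPKM in Esrrb+Hh-CM replicate 1 against 13.06 in Hh-CM replicate 2. The median over genes of the log2 shift from the mean of all samples was 0.0509 in the first of these and -0.00281 in the second. The order was counted without rescaling, so the place of Trim25 depends on the scaling. By treatment, Irf1 and Xaf1 were lower in all 4 Hh-CM-treated samples, which is 2 of 20 against 8.27% of all genes and near that share. No tested member was higher in all 4. The share of all genes higher in this way is not given, so this is no result about the members. No test is attached to these counts, since members of 1 pathway are not independent.

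**Figure D3:**
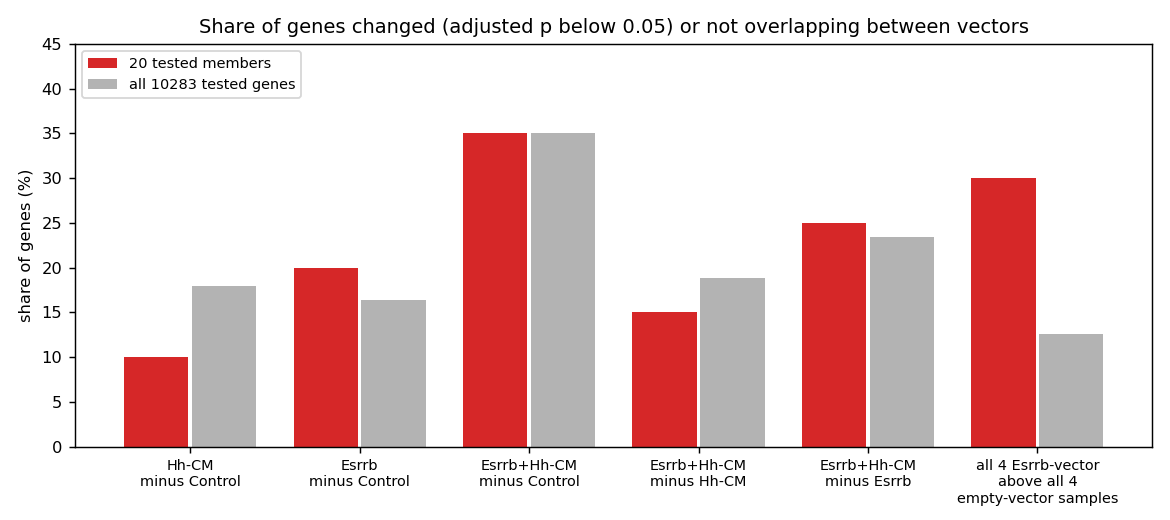
Share of genes in percent (y axis) among the 20 tested members (red) and all 10283 tested genes (grey) that changed at a limma adjusted p below 0.05 in each of 5 comparisons, and, at the right, whose 4 Esrrb-vector samples all lay above the 4 empty-vector samples. The shares were alike for Esrrb+Hh-CM against Control, 35.0% each, and 30.0% against 12.6% for the order of the vectors. That order was counted without rescaling.

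The 9 members below 1 FPKM included genes that infected cells are known to induce strongly. Mx1, a GTPase that blocks influenza viruses (chromosome 16 from 97668642 to 97684514), was at 0.0724 and 0.0213 FPKM in Control and 0.0676 and 0.0488 in Hh-CM samples. It was at 0.644 and 0.534 FPKM in Esrrb and 0.306 and 0.4001 in Esrrb+Hh-CM samples, well apart from the empty-vector samples. In a fit with no FPKM limit, over 20195 genes, its log2 difference was 2.25 ± 0.22 for Esrrb and 1.64 ± 0.22 for Esrrb+Hh-CM against Control (SE, limma adjusted p = 0.0135 and 0.0131), and 1.51 ± 0.22 for Esrrb+Hh-CM against Hh-CM (limma adjusted p = 0.0303). Ifih1, the sensor MDA5 of long double-stranded RNA (chromosome 2 from 62433850 to 62484312), was at 0.0725 and 0.0721 FPKM in Control, 0.131 and 0.168 in Hh-CM, 0.270 and 0.361 in Esrrb, and 0.260 and 0.309 in Esrrb+Hh-CM samples. The same fit gave 1.26 ± 0.14 for Esrrb and 1.16 ± 0.14 for Esrrb+Hh-CM against Control (limma adjusted p = 0.0194 and 0.0107). At such levels a value rests on few reads.

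Oasl2, related to the oligoadenylate synthetases, was at 0.326 to 0.456 FPKM in the empty-vector and 0.548 to 0.854 in the Esrrb-vector samples and passed in no comparison of that fit. Mx2 was at 0.0183 to 0.113 FPKM in the empty-vector and 0.0892 to 0.497 in the Esrrb-vector samples, which overlapped. Iigp1 and Psmb8 stayed at or below 0.495 FPKM with overlapping groups, and Oas1a, Oas2 and Rsad2, all at or below 0.0499 FPKM, were listed at 0 in 3 or 4 of the 8 samples. Of the 5 low members with a value above 0 in every sample, Mx1, Ifih1 and Oasl2 had all Esrrb-vector samples above all empty-vector samples, against 6.94% of 1138 such genes.

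**Figure D4:**
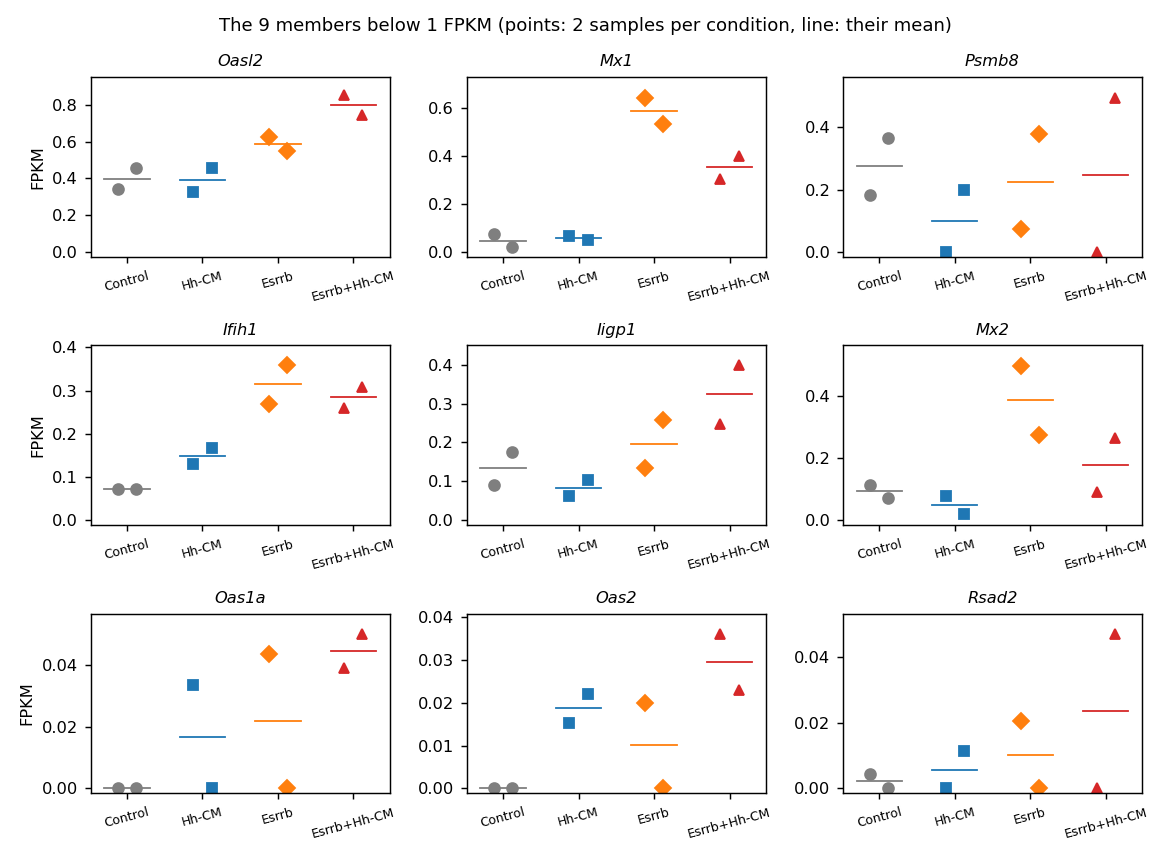
FPKM (linear y axes that differ between panels) of the 9 members below 1 FPKM, with 1 point per sample and a line at the mean of the 2 samples of each condition. Mx1 rose from at most 0.0724 FPKM in the empty-vector samples to at least 0.306 in the Esrrb-vector samples, while Oas1a, Oas2 and Rsad2 stayed near 0.

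The 7 members with shared loci include the class I heavy and light chains themselves. B2m, the light chain of every class I molecule, was at 748.0 FPKM in Control replicate 1 and 1078 and 891.1 in Hh-CM samples. It was at 728.8 and 733.2 FPKM in Esrrb and 834.6 and 772.3 in Esrrb+Hh-CM samples, and in Control replicate 2 its locus ran on to 122004763 on chromosome 2, at 751.8 FPKM. With that sample left out of this gene, the log2 difference of Hh-CM from Control was 0.39 ± 0.12 (SE, limma adjusted p = 0.103). The B2m value of 1078 FPKM in Hh-CM replicate 1 lay above its Cufflinks 95% bounds of 948.0 to 995.2. H2-K1, a class I heavy chain, was at 24.6 to 25.8 FPKM in the 4 empty-vector samples and 30.3 in Esrrb replicate 1. In the other 3 Esrrb-vector samples its locus was 25675 bases long in place of 4322, at 30.3 to 34.4 FPKM. In these 3 the vector and the extent of the locus cannot be told apart. Esrrb replicate 1 had the same locus of 4322 bases as the empty-vector samples, and it is 1 sample.

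H2-D1, the other heavy chain of the list, had no locus of its own. The assembled locus over it, which was 165268 to 211470 bases long and took in neighbouring genes, was at 135.9 to 155.6 FPKM, with the 2 Hh-CM samples at 138.5 and 135.9. Irf9, the DNA-binding partner of STAT2, was at 3.98 to 5.50 FPKM in 7 samples and merged with its neighbour in Esrrb+Hh-CM replicate 1. Ifit2 was at 10.97 to 12.1 FPKM in the 6 samples with a locus of its own. Ifit3, at 1.79 to 2.03 FPKM, and Igtp, at 2.26 to 3.26 FPKM, had such a locus in 3 samples each. None of B2m, Ifit2 and Irf9, the 3 that could be fitted without the merged samples, passed in any comparison.

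The genes around the members were read from lists of the pathway. All 11 interferon genes listed, Ifnb1 and Ifng among them, stayed at or below 0.438 FPKM, and 8 of them were at 0 in every sample. Of the 5 tested receptor subunits, none rose and 2 fell with Hh-CM (40% against 18.0% of all tested genes), and 1 rose and 3 fell in Esrrb+Hh-CM against Control (80% against 35.0%). Il10rb, a subunit shared by the receptors for interferon-lambda and interleukin 10, was at 22.6 and 23.3 FPKM in Control, 12.7 and 12.7 in Hh-CM, 20.5 and 21.1 in Esrrb, and 9.20 and 9.19 in Esrrb+Hh-CM samples. It fell by 0.85 with Hh-CM in empty-vector cells (SE 0.0427, limma adjusted p = 0.000179) and by 1.17 in Esrrb-vector cells (SE 0.0427, limma adjusted p = 4.88e-05), both on the log2 scale.

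Of the 10 tested genes of signalling from the receptors, 7 rose and none fell from Control to Esrrb (70% against 16.4% of all tested genes), and 6 rose and none fell from Control to Esrrb+Hh-CM (60% against 35.0%). With Hh-CM, 4 of the 10 rose and 1 fell in empty-vector cells (50% against 18.0%), and 3 rose and 3 fell in Esrrb-vector cells (60% against 23.4%).

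Among 16 tested genes of nucleic acid sensing, 5 rose and 1 fell from Control to Esrrb+Hh-CM (37.5% against 35.0% of all tested genes). From Control, 1 rose to each of Hh-CM and Esrrb (6.25% against 18.0% and 16.4%). Tmem173, which encodes STING, was at 2.63 and 2.38 FPKM in Control, 4.18 and 3.69 in Hh-CM, 4.30 and 4.18 in Esrrb, and 6.06 and 6.49 in Esrrb+Hh-CM samples. The Control samples were lowest, the Hh-CM and Esrrb samples overlapped in the middle, and the Esrrb+Hh-CM samples were highest, with a log2 difference from Control of 1.29 ± 0.10 (SE, limma adjusted p = 0.000340). Mb21d1, which encodes the DNA sensor cGAS upstream of STING, was at 1.497 and 1.47 FPKM in Control and 3.20 and 3.06 in Esrrb+Hh-CM samples, a log2 difference of 1.03 ± 0.14 (limma adjusted p = 0.00344). The interaction passed for neither (limma adjusted p = 0.814 and 0.396).

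Of 36 other interferon-stimulated genes tested, 12 rose and 1 fell from Control to Esrrb (36.1% against 16.4% of all tested genes), and 14 rose and 3 fell from Control to Esrrb+Hh-CM (47.2% against 35.0%). Sp110, a nuclear body protein, had the clearest difference between the vectors. It was at 2.16 and 1.90 FPKM in Control, 2.08 and 1.84 in Hh-CM, 11.98 and 11.8 in Esrrb, and 10.7 and 17.4 in Esrrb+Hh-CM samples, with log2 differences of 2.50 ± 0.23 for Esrrb against Control and 2.74 ± 0.23 for Esrrb+Hh-CM against Hh-CM (SE, limma adjusted p = 0.00232 and 0.00169). Its neighbour Sp100 was at 5.73 to 6.57 FPKM in the empty-vector samples, 13.1 and 11.5 in Esrrb, and 19.0 and 27.0 in Esrrb+Hh-CM samples. These 2 genes are related in sequence, and reads shared between them cannot be told apart here.

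With Hh-CM, 5 of the 36 rose and 4 fell in empty-vector cells (25% against 18.0%), and 5 rose and 5 fell in Esrrb-vector cells (27.8% against 23.4%). Cmpk2, a mitochondrial nucleotide kinase next to Rsad2 on chromosome 12, was at 0.0628 and 0.0178 FPKM in Control, 0.715 and 1.01 in Hh-CM, 0.172 and 0.172 in Esrrb, and 2.45 and 1.41 in Esrrb+Hh-CM samples. All Hh-CM-treated samples were far above the vehicle samples, with log2 differences of 2.78 ± 0.39 in empty-vector and 2.85 ± 0.39 in Esrrb-vector cells (SE, limma adjusted p = 0.00693 and 0.00445). Cmpk2 passed the FPKM limit only through Hh-CM-treated samples, and over the alternatives these differences ran from 0.83 to 4.62 and from 1.30 to 3.43. The chemokine gene Ccl5 was at 11.97 and 9.38 FPKM in Control, 2.91 and 2.84 in Hh-CM, 4.69 and 2.93 in Esrrb, and 4.81 and 3.58 in Esrrb+Hh-CM samples, so that only the Control samples stood apart. In empty-vector cells given Hh-CM it fell by 1.85 in log2 units (SE 0.257, limma adjusted p = 0.00648) and differed by 0.16 with Hh-CM in Esrrb-vector cells (limma adjusted p = 0.711). It fell by 1.49 from Control to Esrrb (limma adjusted p = 0.0170), a call lost without Control replicate 1 or Esrrb replicate 2 and with no FPKM limit (adjusted p up to 0.0867). The interaction was 2.01 ± 0.36 and did not pass (limma adjusted p = 0.0660). Herc6 rose by 1.27 from Control to Esrrb+Hh-CM cells (SE 0.326, limma adjusted p = 0.0294). This call was lost without any 1 Control or Esrrb+Hh-CM sample and with no FPKM limit. The other calls given here for single genes of the pathway lists, apart from the proteasome subunits, kept their side of the adjusted p threshold. This held in every alternative that could be fitted and with each sample left out. The log2 difference of Mb21d1 between Esrrb+Hh-CM and Control ran from 0.733 to 1.075 over them, so it did not always reach the fold threshold.

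**Figure D5:**
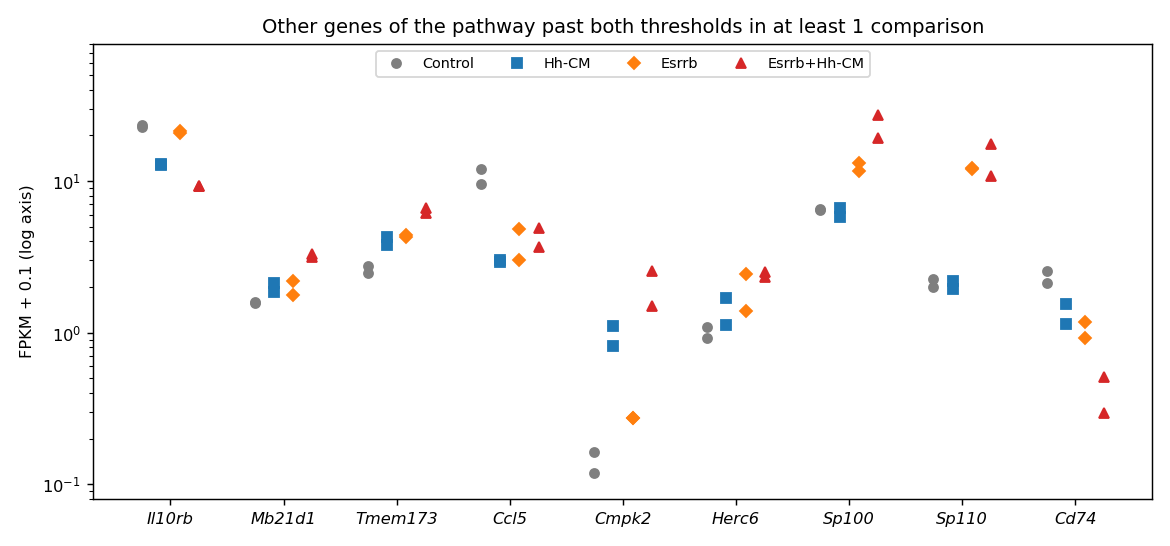
FPKM + 0.1 (log axis) of the 9 other pathway genes that passed both thresholds in at least 1 comparison, in the 2 samples of each condition (symbols as named in the legend). Sp100 and Sp110 separate by vector, Cmpk2 and Il10rb mainly by Hh-CM, and Tmem173 and Cd74 move from Control through the single conditions to Esrrb+Hh-CM.

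Of 12 other antigen-presentation genes tested, 3 rose and none fell from Control to Esrrb (25% against 16.4% of all tested genes), and 1 rose and 1 fell from Control to Esrrb+Hh-CM (16.7% against 35.0%). Cd74, the invariant chain of class II molecules, was at 2.45 and 2.03 FPKM in Control, 1.05 and 1.45 in Hh-CM, 0.819 and 1.07 in Esrrb, and 0.194 and 0.412 in Esrrb+Hh-CM samples. It fell by 2.59 on the log2 scale from Control to Esrrb+Hh-CM cells (SE 0.334, limma adjusted p = 0.00253), and this difference ran from -2.99 to -1.32 over the alternatives. Of 7 constitutive proteasome beta subunits, Psmb2, Psmb3 and Psmb4 rose from Control to Esrrb+Hh-CM (42.9% against 35.0% of all tested genes). Psmb5 and Psmb6, whose places Psmb8 and Psmb9 take in the inducible form, differed by 0.20 ± 0.09 and 0.03 ± 0.04 and did not pass (SE, limma adjusted p = 0.136 and 0.569). Psmb9 itself differed by -0.01 ± 0.12 (SE, limma adjusted p = 0.943).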

How the data were processed

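The 8 NIH3T3 samples were grouped by the vector and treatment in their labels. The authors filtered and mapped the reads to mm9 with Bowtie2 and TopHat2 and assembled each sample with Cufflinks, and the deposited values are gene FPKM. Because Cufflinks numbers loci anew in each sample, each locus was given to the GENCODE gene of mm9 with which it shared 0.5 or more of their combined length (the gene's span or that of a transcript), and the best locus was kept. The study's Cuffdiff step needs reads and was not repeated.

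Tests covered genes that reached 1 FPKM in 2 or more samples. They used limma 3.58.1 (R 4.3.3) on values of log2(FPKM + 0.1). The fit held all 8 samples and 4 group means, with the variance trended on mean expression and p-values adjusted by Benjamini-Hochberg, and was tested on simulated data. The interaction was the response to Hh-CM in Esrrb-vector cells less that in empty-vector cells. No exact permutation of 2 against 2 samples can reach below 0.33.

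The members, lists and tests were chosen with earlier results of these data known. Members past an adjusted p of 0.05 and a log2 fold change of 1, and the highest of each role, were to be given in every sample. Those with an adjusted p below 0.05 alone, and those ordered by vector, were added after their values were seen. Pathway genes past both thresholds are named. The SD over genes of the log2 difference between replicates was 0.563 to 0.689. Same-numbered samples did not deviate together (correlations of -0.0596 to 0.0624). The rest used Python 3.11.15 with matplotlib 3.10.9, numpy 2.4.6 and pandas 2.3.3. Alternatives were other pseudocounts, limits, scaling, locus matching, the replicate block and each sample left out.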

Additional observations from a re-analysis of the deposited data

Results flagged for a closer look

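The order of the Ifi44 samples with Hh-CM differed between the vectors. Both Hh-CM samples lay above both Control samples, and both Esrrb+Hh-CM samples lay below both Esrrb samples. The fall in Esrrb-vector cells was within its SE, at -0.08 ± 0.11 on the log2 scale (limma adjusted p = 0.664). The difference of the 2 responses was -0.59 on the log2 scale (SE 0.154), and its test as an interaction did not pass (limma adjusted p = 0.131).

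Trim25 had the same order of samples, with a difference of -0.19 on the log2 scale (SE 0.0591) that did not pass either (limma adjusted p = 0.179). Its rise with Hh-CM in empty-vector cells was within its SE, at 0.03 ± 0.04 (limma adjusted p = 0.684). With 2 samples per condition, no condition was large enough to look for a single sample that stands apart.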

How the results depend on the processing

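Of the 21 calls of a member in a comparison, 4 held in every alternative, those of Ifi44 in Esrrb and in Esrrb+Hh-CM against Control and of Isg15 in Esrrb+Hh-CM against Control and against Hh-CM. The other 17 were lost in at least 1, and no call changed sign. Of 99 values without a call, 11 passed in at least 1 alternative and 39 changed sign in at least 1. The cause was not tested.

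Leaving out each sample in turn gave 0 to 2 members changed with Hh-CM against Control, 1 to 3 with Esrrb against Control, 4 to 6 with Esrrb+Hh-CM against Control, 1 to 2 against Hh-CM and 0 to 3 against Esrrb, and 0 for the interaction. With the fold threshold it gave 0 to 1, 0 to 1, 0 to 2, 0 and 0 in the same order of comparisons. Dhx58 passed both thresholds in 3 comparisons without Control replicate 2, and Usp18 in 2 without Control replicate 1.

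With a pseudocount of 1, 1 member, Usp18, passed both thresholds between Control and Esrrb and 0 between Control and Esrrb+Hh-CM. With no FPKM limit, 29 members were tested, 2 passed both thresholds between Control and Esrrb (Mx1 and Ifih1), 3 between Control and Esrrb+Hh-CM (with Irf7) and 1 between Hh-CM and Esrrb+Hh-CM (Mx1), and 3 changed between Esrrb and Esrrb+Hh-CM. With an FPKM of 1 in every sample, 14 members were tested and 0 passed both thresholds between Control and Esrrb+Hh-CM. With the replicate block, 1 member changed with Hh-CM against Control and 2 between Esrrb and Esrrb+Hh-CM. With rescaled FPKM, 2 changed between Control and Esrrb. Keeping genes without a locus in some samples, chosen after seeing the data, moved no count beyond 1.5 times. For none of these alternatives, nor for the samples left out, is the share of all genes in the same fit given. The counts therefore show only how they move with the processing, and are no result about the members.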
